A study of Homo sapiens with 12 samples.

Results

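A set of 10 genes that cut, carry and load peptides for MHC class I molecules was followed by RNA-seq in 12 libraries of K562, a cell line from chronic myeloid leukaemia. The genes are TAP1, TAP2, TAPBP, PSMB8, PSMB9, PSMB10, PSME1, PSME2, ERAP1 and ERAP2. They were taken by symbol, and where several loci carried a symbol the locus of highest mean FPKM was used, which gave 10 loci out of 38272 in the table. FPKM is a fragment number scaled to transcript length and library size. The TNFSG group had received the siRNA Si623 and the GapmeR Gap01 against a long non-coding RNA (lncRNA) and then 6 hours of the cytokine TNF (tumour necrosis factor alpha) at 20 ng/mL. The TNF group had the mock transfection (SiCt and GapCt) followed by the same cytokine. The SG group had the targeted transfection without TNF, and the control group had the mock transfection without TNF. Each group had 3 libraries labelled as biological replicates, and all cells were transfected with oligonucleotides. A GapmeR is a DNA-based antisense strand through which RNase H cleaves the RNA it pairs with.

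Class I molecules show short peptides to CD8 T cells. The proteasome makes the peptides, and in cells exposed to inflammatory cytokines its catalytic subunits can be replaced by PSMB8, PSMB9 and PSMB10, which form the immunoproteasome. The activator made of PSME1 and PSME2 caps the core. TAP1 and TAP2 form the pump that moves peptides into the endoplasmic reticulum, where ERAP1 and ERAP2 trim them and TAPBP (tapasin) holds the empty class I molecule at the pump. K562 is known for little class I on its surface, and these genes are textbook targets of interferon gamma, with some of them also responding to TNF.

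All 7 K562 markers reported (among them GATA1, TAL1 and KLF1) reached at least 1 FPKM in a group. Several genes of other cell types were also listed: EPCAM lay between 48.9 and 64.5 FPKM, CD3D between 10.9 and 44.7 FPKM and ITGAX between 0 and 442 FPKM. The fibroblast gene COL1A2 averaged 138 FPKM in TNFSG and 409 FPKM in TNF, against 4.43 FPKM in SG and 1.13 FPKM in control. Single high libraries carried most of the TNFSG and TNF means, and COL1A2 ran from 0 to 1098 FPKM over all libraries. The summed level of the 2 fibroblast genes found of 3 (COL1A1 and COL1A2) lay between 8.11 and 409.5 FPKM in TNFSG and between 3.35 and 1108 FPKM in TNF, against 4.10 to 9.50 FPKM in SG and 0.936 to 10.8 FPKM in control. The erythroid factor KLF1 averaged 54.5 FPKM in TNFSG and 63.2 FPKM in TNF, against 87.4 FPKM in SG and 93.9 FPKM in control. The summed level of the 7 K562 markers overlapped between all groups, but most of it was the locus of HBE1 and HBG2 (1378 to 3414 FPKM). LMO2 averaged 45.9 FPKM in TNFSG and 56.4 FPKM in TNF, against 61.9 FPKM in SG and 76.8 FPKM in control. The means of GATA1, TAL1, EPOR and the HBE1 locus were also lower with TNF in both transfections. HBG1 was lower in TNF than in control but higher in TNFSG than in SG. The part of these markers in the results below was not tested. FPKM sums per library lay between 925955 and 1083476, and relative depths, estimated from values that stepped in whole reads, lay between 0.788 and 1.20 of control replicate 1. Read totals are not given in the table, so precision is set here by the spread among 3 libraries. In bulk RNA, a change in the cells that express a gene and a change in the RNA per cell cannot be told apart.

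The loci lie on 4 chromosomes of hg38 (GENCODE release 29). TAP2 (32821833 to 32838780), PSMB8 (32840717 to 32844703), PSMB9 (32844136 to 32859585) and TAP1 (32845209 to 32853978) form a cluster in the class II region on chromosome 6, and TAPBP lies at 33299694 to 33314387 on the same chromosome. ERAP1 (96760810 to 96808100) and ERAP2 (96875939 to 96919716) are neighbours on chromosome 5, PSME1 (24136158 to 24138967) and PSME2 (24143362 to 24147570) are neighbours on chromosome 14, and PSMB10 lies at 67934502 to 67937087 on chromosome 16. Some loci of the table hold more than 1 gene: TAP2 shares its locus with HLA-DOB and XXbac-BPG246D15.9, TAPBP with RGL2 and ZBTB22, PSMB9 with PSMB8-AS1 and PSMB10 with CTRL. In the annotation the span of PSMB9 covers all 8770 bases of TAP1 on the opposite strand, and ERAP1 overlaps CAST on the opposite strand over 18786 bases. On the opposite strand, PSMB8 also overlaps PSMB8-AS1 (618 bases) and PSMB9 (568 bases), and TAP1 overlaps PSMB8-AS1 (1287 bases). Whether the counting used strand is not given in the sources used here, so reads of such partners cannot be told apart.

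The starts of these genes share a sequence feature, which is shown first. In RefSeq promoters (GRCh38.p14, 250 bases before to 50 after a start, 14 windows for the 10 genes), the core of the interferon-stimulated response element (ISRE), GAAA, any 2 bases and GAAA again on either strand, occurred at 9 of the 10 genes, all but PSMB9. It occurred in 4.38% of the 27305 genes with a promoter in the table and in 3.57% of the 35116 promoters. Each 30-base stretch below is printed in the direction of its gene with the core in capitals; TTTC, 2 bases and TTTC is the same core on the other strand. For PSMB8 and ERAP2 it comes from the second start listed.
TAP1, chr6:32853816-32853845, minus strand: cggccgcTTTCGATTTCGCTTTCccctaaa
TAP2, chr6:32838778-32838807, minus strand: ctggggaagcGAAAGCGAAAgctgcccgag
TAPBP, chr6:33314076-33314105, minus strand: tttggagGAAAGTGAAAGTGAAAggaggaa
PSMB8, chr6:32844032-32844061, minus strand: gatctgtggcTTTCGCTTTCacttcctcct
PSMB10, chr16:67936852-67936881, minus strand: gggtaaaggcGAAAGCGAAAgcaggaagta
PSME1, chr14:24136189-24136218, plus strand: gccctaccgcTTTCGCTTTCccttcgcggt
PSME2, chr14:24146619-24146648, minus strand: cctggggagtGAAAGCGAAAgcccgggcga
ERAP1, chr5:96807924-96807953, minus strand: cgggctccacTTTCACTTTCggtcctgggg
ERAP2, chr5:96876460-96876489, plus strand: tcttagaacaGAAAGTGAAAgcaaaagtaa

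TAP1 and TAPBP each held the core in 2 overlapping copies, and the other 7 genes held 1. The match lay within 58 bases of the start in 8 of these genes and 134 bases before it in TAP1. A second motif, the NF-kB site (searched by its consensus on both strands), occurred at TAP1, TAPBP and ERAP1, 3 of the 10 genes, against 13.3% of all genes. The interferon gamma-activated site TTCNNNGAA (GAS) occurred at 2, in the second start of TAP1 and the second start of PSMB8, against 9.38% of all genes. TAP1 and PSMB9 are transcribed away from each other, and their annotated starts lie 488 bases apart, so the ISRE cores of TAP1 and the NF-kB match 72 bases before its start lie between both starts and outside the window of PSMB9. These are matches of letters, not measured sites. The 250 bases before the starts of TAP1 and TAPBP are printed because both motifs occur there and both genes rose under TNF. ERAP1 also held both motifs, with its ISRE core 2 bases after the start and so outside those 250 bases. ERAP2 rose under TNF as well and had no NF-kB match. Whether the motifs bear on the response was not tested. The capitals mark the ISRE cores and the NF-kB match.
TAP1, chr6:32853705-32853954, minus strand: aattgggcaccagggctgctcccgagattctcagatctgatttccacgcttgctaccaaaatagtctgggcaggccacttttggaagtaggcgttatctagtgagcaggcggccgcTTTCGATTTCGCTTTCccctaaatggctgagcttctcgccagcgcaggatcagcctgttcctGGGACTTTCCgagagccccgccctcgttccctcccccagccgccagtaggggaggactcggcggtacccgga
TAPBP, chr6:33314079-33314328, minus strand: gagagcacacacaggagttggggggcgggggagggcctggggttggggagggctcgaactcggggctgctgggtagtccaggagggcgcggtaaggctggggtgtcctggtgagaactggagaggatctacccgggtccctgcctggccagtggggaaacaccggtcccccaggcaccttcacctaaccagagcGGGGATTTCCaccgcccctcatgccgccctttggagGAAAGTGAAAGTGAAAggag

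**Figure D1:**
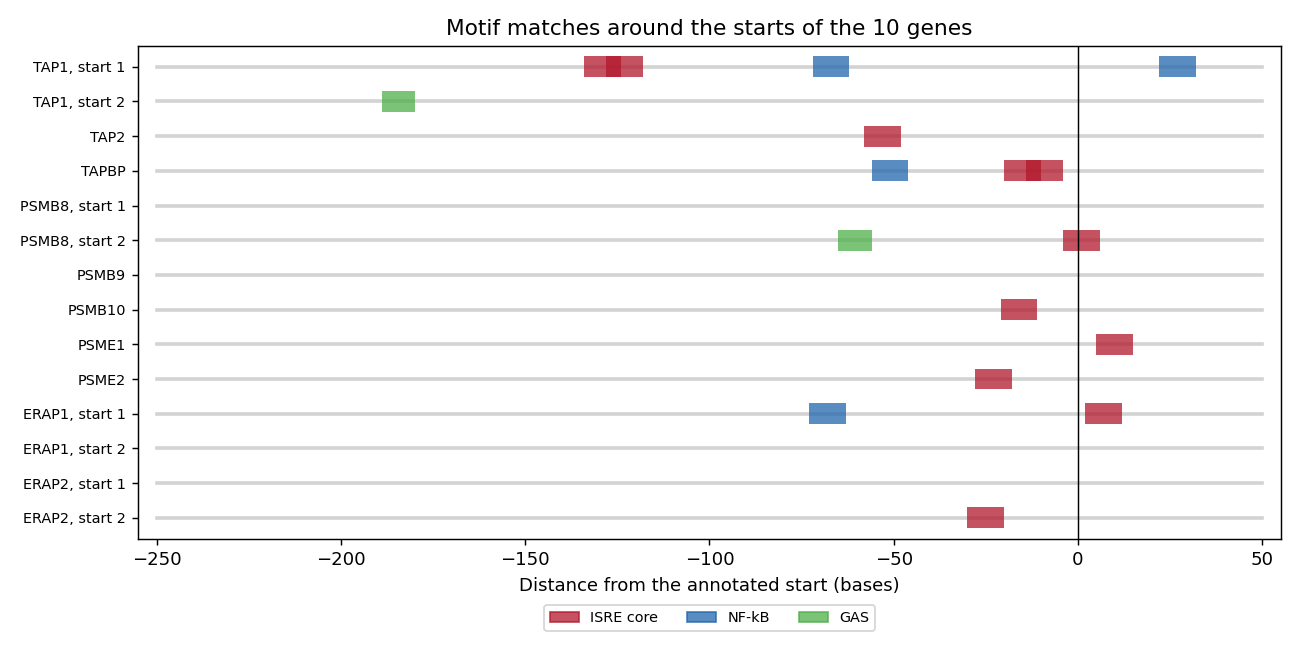
Each row is 1 RefSeq promoter window of the 10 genes, drawn by distance from the annotated start in bases; boxes mark matches of the ISRE core, the NF-kB site and GAS. ISRE cores occur at 9 of the 10 genes, mostly close to the start, while PSMB9 holds none of the 3 motifs.

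The response to TNF was measured in mock-transfected cells (TNF against control) and in cells given the siRNA and GapmeR (TNFSG against SG). TAP1, TAPBP, ERAP2 and PSME1 rose in both, and the immunoproteasome subunits PSMB8, PSMB9 and PSMB10 passed the test in neither. Mean TAP1 was 10.7-fold higher in TNF than in control and 10.7-fold higher in TNFSG than in SG, TAPBP 3.88-fold and 3.03-fold, and ERAP2 3.71-fold and 3.05-fold. In both comparisons 4 of the 10 loci were higher and 0 lower at an adjusted p under 0.05 from limma's moderated test on log2(FPKM + 1). Of all 32866 loci tested, 1.18% were higher in TNF than in control and 1.37% were higher in TNFSG than in SG. Values without overlap, all higher with TNF, were found for 6 of the 10 in TNF against control (7.59% of all loci) and for 8 of the 10 in TNFSG against SG (8.13% of all loci). The median log2 change of the 10 genes was 0.50 for TNF against control, where the median of all loci was -0.02, and 0.47 for TNFSG against SG, where it was -0.03. Fold changes on this scale understate the change of loci with low values.

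**Figure D2:**
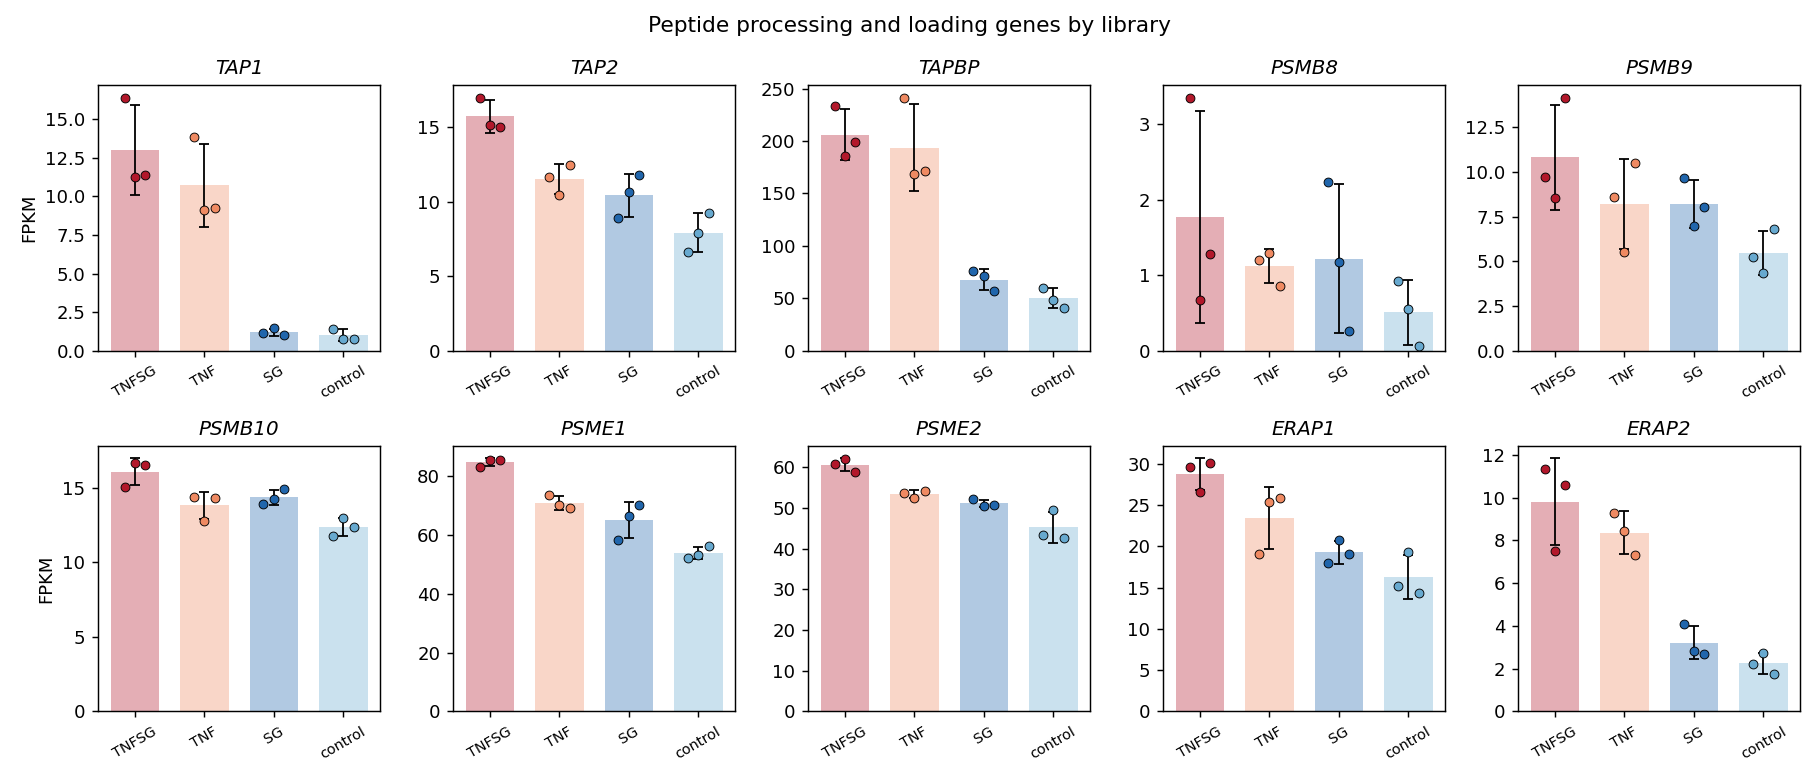
FPKM of the 10 genes in TNFSG, TNF, SG and control; points are libraries, bars are means and error bars are SD (n = 3 per group). TAP1, TAPBP and ERAP2 stand higher in all 6 libraries with TNF than in all 6 without it, and PSMB8 scatters widely within groups.

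The peptide pump was among the genes that moved most, through 1 of its 2 chains. TAP1 had 13.8, 9.10 and 9.26 FPKM in TNF, against 1.44, 0.791 and 0.769 FPKM in control. With the targeted transfection it had 16.4, 11.3 and 11.4 FPKM in TNFSG, against 1.16, 1.46 and 1.01 FPKM in SG. No library with TNF came near one without it. The log2 change was 2.55 ± 0.22 (SE) for TNF against control (limma adjusted p 0.000259) and 2.65 ± 0.22 for TNFSG against SG (limma adjusted p 0.000196).

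TAP2, the other chain of the pump, had 11.7, 10.4 and 12.4 FPKM in TNF, against 6.60, 7.90 and 9.24 FPKM in control. It had 17.0, 15.2 and 15.0 FPKM in TNFSG, against 8.88, 10.6 and 11.8 FPKM in SG. The groups did not overlap in either comparison, but the log2 changes of 0.50 ± 0.13 and 0.55 ± 0.13 gave limma adjusted p values of 0.146 and 0.0954. With quantile normalization TAP2 passed in TNFSG against SG (limma adjusted p 0.0498). On the per-length FPKM scale, TAP1 averaged 10.7 ± 2.68 FPKM and TAP2 11.5 ± 1.00 FPKM in TNF (SD, n = 3 each). In control TAP1 averaged 1.00 ± 0.381 FPKM and TAP2 7.91 ± 1.32 FPKM, though the TAP2 locus also holds HLA-DOB.

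TAPBP, the bridge between the pump and class I, had the highest level of the 10 loci under TNF, though its locus also holds RGL2 and ZBTB22. Its values were 241, 168 and 171 FPKM in TNF, against 60.0, 48.5 and 41.1 FPKM in control. In TNFSG they were 233, 186 and 199 FPKM, against 75.6, 71.2 and 56.7 FPKM in SG. Every library with TNF lay above every library without it, by a log2 change of 1.93 ± 0.18 for TNF against control (limma adjusted p 0.000571) and 1.59 ± 0.18 for TNFSG against SG (limma adjusted p 0.00204).

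Of the trimming peptidases of the endoplasmic reticulum, ERAP2 rose and ERAP1 moved less. ERAP2 had 9.29, 8.46 and 7.30 FPKM in TNF, against 2.24, 2.75 and 1.77 FPKM in control. It had 11.3, 7.52 and 10.6 FPKM in TNFSG, against 4.10, 2.85 and 2.70 FPKM in SG. The groups were apart in both comparisons, with log2 changes of 1.53 ± 0.19 (limma adjusted p 0.00345) and 1.36 ± 0.19 (limma adjusted p 0.00682). The second call was lost with only TNFSG and SG in the fit (limma adjusted p 0.0788). The symbol sits on 7 loci, and the locus used has the highest mean.

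ERAP1 had 19.1, 25.4 and 25.8 FPKM in TNF, against 15.2, 19.3 and 14.3 FPKM in control, and the groups overlapped. In TNFSG it had 29.5, 26.6 and 30.1 FPKM, against 18.0, 20.8 and 19.04 FPKM in SG, without overlap. Its log2 changes were 0.50 ± 0.14 (limma adjusted p 0.16) and 0.55 ± 0.14 (limma adjusted p 0.108).

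Both subunits of the proteasome activator were higher with TNF by small amounts with little scatter. PSME1 had 73.6, 70.3 and 69.0 FPKM in TNF, against 52.3, 53.2 and 56.2 FPKM in control. It had 83.1, 85.4 and 85.3 FPKM in TNFSG, against 58.2, 66.3 and 70.2 FPKM in SG. The groups did not overlap, and the log2 changes of 0.39 ± 0.07 and 0.38 ± 0.07 passed (limma adjusted p 0.0306 and 0.0315). Leaving out 1 library of the pair ended the call in 6 of 6 fits for TNF against control and in 5 of 6 for TNFSG against SG (limma adjusted p up to 0.122 and 0.113), and both were lost with only the groups compared or without the trend.

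PSME2 had 53.6, 52.4 and 54.2 FPKM in TNF, against 43.4, 49.6 and 42.7 FPKM in control. It had 60.8, 62.0 and 58.9 FPKM in TNFSG, against 52.1, 50.5 and 50.7 FPKM in SG. Here too the groups did not overlap, and the log2 change was 0.24 ± 0.06 in each comparison (limma adjusted p 0.142 and 0.13).

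The 3 immunoproteasome subunits gave no call in either comparison. PSMB9 had 8.59, 5.50 and 10.5 FPKM in TNF, against 5.24, 4.35 and 6.82 FPKM in control. It had 9.73, 8.55 and 14.2 FPKM in TNFSG, against 9.64, 6.98 and 8.05 FPKM in SG. Its groups overlapped in both, and the 95% intervals of the log2 change ran from -0.08 to 1.05 and from -0.23 to 0.90. For TAP1, whose start lies across the shared 488 bases, they ran from 2.06 to 3.03 and from 2.17 to 3.13.

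PSMB10 had 14.4, 12.8 and 14.3 FPKM in TNF, against 11.7, 13.0 and 12.4 FPKM in control, with overlap. It had 15.1, 16.7 and 16.5 FPKM in TNFSG, against 13.9, 14.3 and 14.9 FPKM in SG, with no overlap. The log2 change was 0.15 ± 0.08 in both, with 95% intervals of -0.02 to 0.33.

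PSMB8 had the lowest mean of the 10 genes, 1.15 FPKM over all libraries, and 31.3% of all loci in the table lay below it. Whole reads could be recovered for this gene alone among the 10: 24, 23 and 14 reads in TNF, against 18, 10 and 1 in control, and 79, 11 and 22 in TNFSG, against 35, 19 and 5 in SG. The values overlapped in both comparisons, and the intervals of the log2 change, -0.43 to 1.47 and -0.65 to 1.26, run from a fall to a rise of more than 1. With this spread between libraries, no response of PSMB8 was detected, and on this scale a change within these intervals cannot be told from none.

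**Figure D3:**
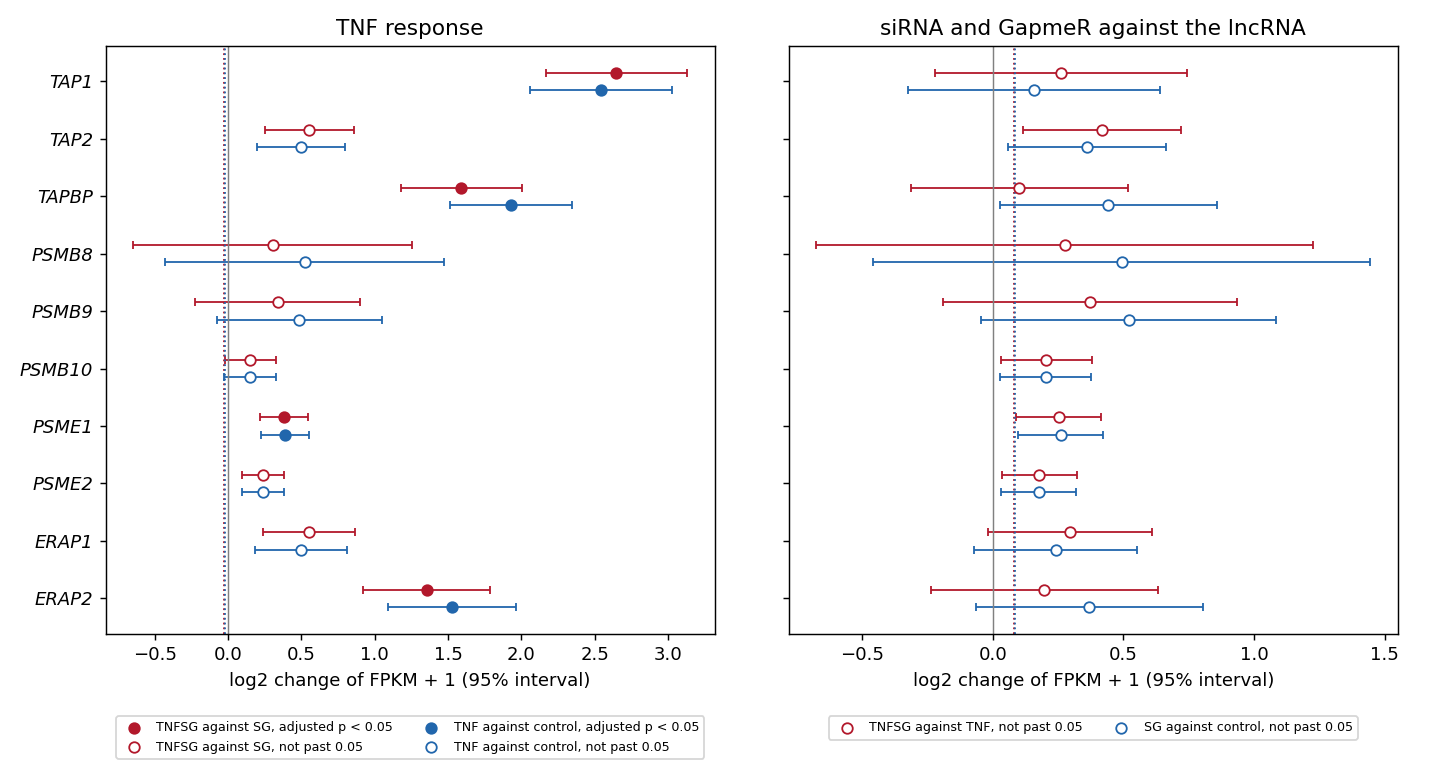
Log2 change of FPKM + 1 with its 95% interval for each of the 10 genes; the left panel shows TNFSG against SG and TNF against control, the right panel TNFSG against TNF and SG against control, and dotted lines mark the median of all loci tested. Filled points (TAP1, TAPBP, PSME1 and ERAP2, left) passed an adjusted p of 0.05, all points lie above 0, and the right panel has none past the threshold.

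Averaging both TNF comparisons set 6 libraries with TNF against 6 without and narrowed the errors. Then 7 of the 10 genes rose, where 2.84% of all loci did. Beside TAP1 (2.60 ± 0.15, limma adjusted p 9.36e-06), TAPBP (1.76 ± 0.13, 5.17e-05), ERAP2 (1.44 ± 0.14, 0.000258) and PSME1 (0.39 ± 0.05, 0.00219), these were TAP2 (0.53 ± 0.10, limma adjusted p 0.0136), ERAP1 (0.53 ± 0.10, 0.0156) and PSME2 (0.24 ± 0.05, 0.0164). The PSME2 call was lost without the trend in limma (adjusted p 0.089). PSMB8 (0.41 ± 0.30), PSMB9 (0.41 ± 0.18) and PSMB10 (0.15 ± 0.06) gave limma adjusted p values of 0.58, 0.294 and 0.201. In TAP1, TAPBP, ERAP2 and PSME2, 4 of the 10, all 6 libraries with TNF lay above all 6 without, as did 2.43% of all loci. The median of the 10 genes was 0.47 and that of all loci -0.03.

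Each inducible subunit was also set against the constitutive one it replaces, within a library, which takes out the scaling of the library. PSMB8 replaces PSMB5, PSMB9 replaces PSMB6 and PSMB10 replaces PSMB7, and PSME3, whose locus in the table also holds AOC2, forms another activator. The PSMB9 locus also holds PSMB8-AS1, and the PSMB10 locus also holds CTRL. The constitutive subunits were far more abundant: PSMB5 averaged 65.7 ± 7.93 FPKM in TNF and 69.0 ± 8.19 FPKM in control, PSMB6 107 ± 12.3 FPKM in TNF and 102 ± 5.33 FPKM in control, and PSMB7 211 ± 10.4 FPKM in TNF and 203 ± 14.1 FPKM in control (SD, n = 3 each). PSMB9 stood at 0.0484 to 0.0925 of PSMB6 in TNF and 0.0431 to 0.0633 in control, and at 0.0779 to 0.137 in TNFSG and 0.0698 to 0.0984 in SG. PSMB10 stood at 0.0605 to 0.0719 of PSMB7 in TNF and 0.0596 to 0.0627 in control, and at 0.0708 to 0.0758 in TNFSG and 0.0671 to 0.0726 in SG. PSMB8 stood at 0.0126 to 0.0212 of PSMB5 in TNF and 0.000901 to 0.0154 in control, and at 0.00931 to 0.0473 in TNFSG and 0.00364 to 0.0311 in SG. So the 3 catalytic ratios overlapped between groups.

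The activator ratio did not overlap. PSME1 plus PSME2 stood at 1.91 to 2.42 times PSME3 in TNF and 1.60 to 1.61 times in control, and at 2.44 to 2.54 times in TNFSG and 1.75 to 2.00 times in SG. TNF labels were permuted within each transfection in an exact two-sided test of 400 arrangements, with adjustment over the 4 ratios. The log2 ratio of the activator was 0.40 higher with TNF (exact p 0.005, the smallest the design allows, adjusted p 0.02). Within 1 transfection, 3 against 3 libraries cannot go below 0.10, and the activator ratio gave 0.1 in each. The catalytic ratios differed by 1.26 (PSMB8 over PSMB5, exact p 0.17, adjusted 0.17), 0.42 (PSMB9 over PSMB6, exact p 0.085, adjusted 0.113) and 0.09 (PSMB10 over PSMB7, exact p 0.06, adjusted 0.113). No constant was added to these ratios, and PSMB8 had 1 read in control replicate 3. Its ratio was 0.000901 there, against 0.0154 and 0.00727 in control replicates 1 and 2. TNF replicate 2 had the lowest PSMB9 and PSMB10 values of its group, and without it those 2 ratios were 0.57 and 0.12 higher with TNF and passed (adjusted exact p 0.0267 each).

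**Figure D4:**
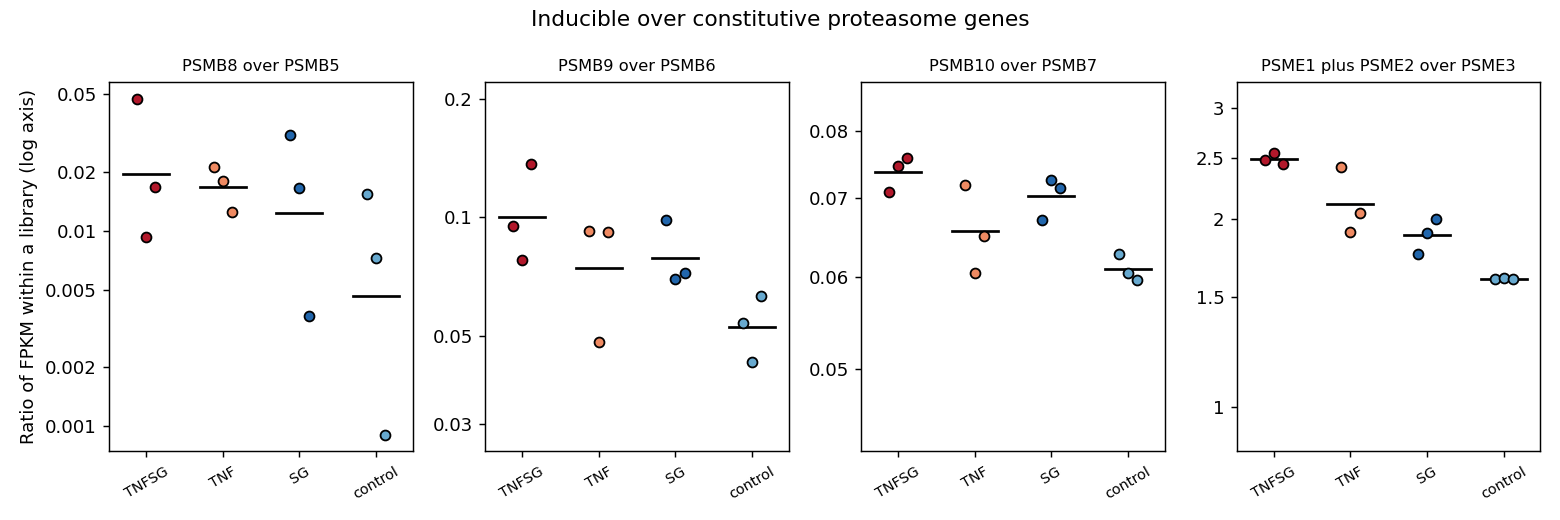
Ratio of inducible to constitutive FPKM within each library, on log axes, for TNFSG, TNF, SG and control; points are libraries and lines are geometric means. The activator ratio on the right lies higher in TNFSG than in SG and higher in TNF than in control without overlap, while the 3 catalytic ratios overlap.

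The other genes of the pathway were read from 8 lists. In the averaged TNF comparison 0 of 3 constitutive catalytic subunits, 0 of 11 other 20S core subunits, 0 of 18 subunits of the 19S regulatory particle, 0 of 8 other activators, assembly factors and inhibitors and 0 of 7 other peptidases passed limma's adjusted threshold in either direction. Of all loci tested, 2.84% were higher and 1.55% lower at that threshold, so counts of 0 in such short lists lie near that share. At an unadjusted p under 0.05, which 15.9% of all loci reached, these lists held 0, 0, 2, 1 and 4 genes. Their median log2 changes were 0.05, 0.04, -0.04, -0.09 and -0.11. PSMB7 gave 0.07 ± 0.05, PSMB4 of the core 0.08 ± 0.05, PSMD12 of the 19S particle -0.14 ± 0.05, the activator PSME4 -0.14 ± 0.05 and THOP1, a cytosolic peptidase that degrades peptides, -0.15 ± 0.05 (limma adjusted p 0.532, 0.537, 0.194, 0.165 and 0.149). The PSMA1 symbol sits on 42 loci, and its change of -1.29 ± 1.43 is uncertain.

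Among 8 other loading and folding factors 1 rose in the averaged TNF comparison, where 2.84% of all loci did. TAPBPL, a relative of tapasin that edits peptides, had 6.77, 4.99 and 7.05 FPKM in TNF, against 1.93, 1.69 and 0.463 FPKM in control. It had 12.3, 9.20 and 4.94 FPKM in TNFSG, against 0.874, 1.56 and 1.32 FPKM in SG. All libraries with TNF lay above all without it, and the averaged log2 change was 1.87 ± 0.24 (limma adjusted p 0.0019). The chaperones HSPA5 (-0.18 ± 0.09) and CANX (-0.10 ± 0.09) gave limma adjusted p values of 0.386 and 0.703.

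Of 5 loci of the class I chains themselves 2 rose in the averaged TNF comparison, where 2.84% of all loci did. B2M, the light chain, had 382, 378 and 357 FPKM in TNF, against 287, 296 and 253 FPKM in control. It had 347, 377 and 363 FPKM in TNFSG, against 251, 270 and 261 FPKM in SG, without overlap, and its averaged change was 0.45 ± 0.05 (limma adjusted p 0.00108). The locus that HLA-B and HLA-C share averaged 13.3 ± 3.34 FPKM in TNF and 7.43 ± 1.44 FPKM in control, and 19.7 ± 3.32 FPKM in TNFSG and 10.1 ± 1.49 FPKM in SG, with an averaged change of 0.82 ± 0.14 (limma adjusted p 0.01). These genes are near-identical in part, so reads may be split between them. HLA-E gave 0.87 ± 0.26 (limma adjusted p 0.112), and 1.07 without control replicate 1 (limma adjusted p 0.0266).

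Of 14 regulators of these genes 8 rose and 1 fell with TNF, where 2.84% of all loci rose and 1.55% fell. The NF-kB genes RELB (3.74 ± 0.15, limma adjusted p 6.56e-07), NFKB1 (2.14 ± 0.09, 1.27e-06) and NFKB2 (3.32 ± 0.18, 5.1e-06) had the lowest p values. IRF1, an activator that binds the ISRE, had 20.9, 22.9 and 22.8 FPKM in TNF, against 6.05, 7.48 and 6.85 FPKM in control, and 20.5, 24.1 and 24.1 FPKM in TNFSG, against 7.31, 7.64 and 5.30 FPKM in SG. The IRF1 groups were far apart, by 1.61 ± 0.09 on the log2 scale (limma adjusted p 9.13e-06). The gene that fell, named after its value was seen, was RFXAP, a subunit of the RFX complex at class I and class II promoters (-0.45 ± 0.07, limma adjusted p 0.00848).

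**Figure D5:**
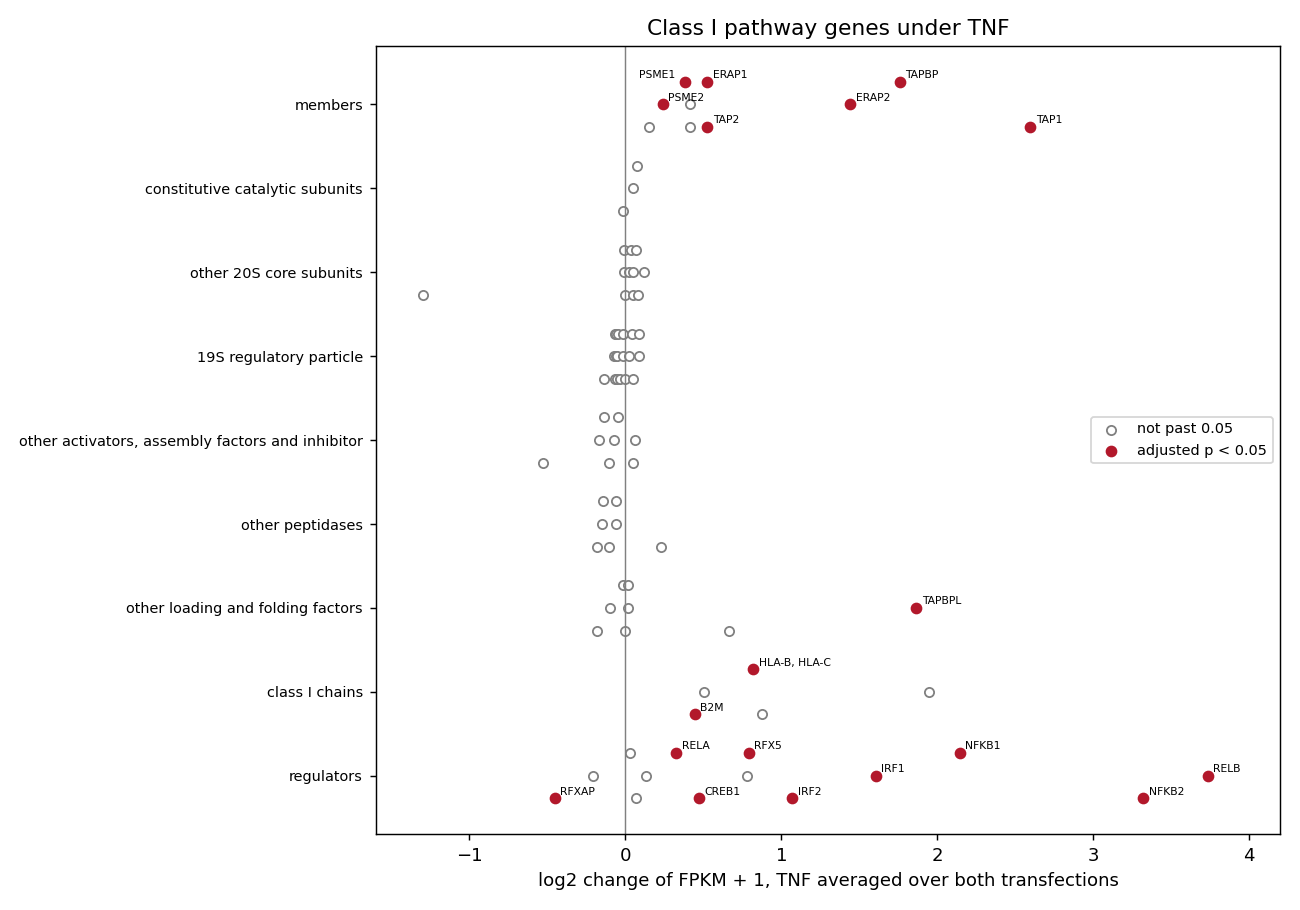
Log2 change of FPKM + 1 for TNF averaged over both transfections, with 1 point per locus of each list; filled points passed an adjusted p of 0.05. Filled points occur among the 10 genes (members), the loading factors (TAPBPL), the class I chains and the regulators, and the proteasome lists below the members lie close to 0 apart from PSMA1 and 1 assembly factor or activator.

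Some genes moved across the libraries much as TAP1 did. By Pearson correlation of log2(FPKM + 1) over 12 libraries and 17980 loci, the 5 most like TAP1 were TNFAIP2 (0.996), a non-coding locus known by a clone name (0.995), LACTB (0.994), RFX5 (0.993) and NFKB2 (0.993). Their mean levels follow the cytokine: TNFAIP2 averaged 64.7 FPKM in TNF and 9.51 FPKM in control, and RFX5, another subunit of the RFX complex, 19.4 FPKM in TNF and 10.8 FPKM in control. For PSMB9 the highest values were lower, with ACADVL (0.946), CCHCR1 (0.906), PCED1A (0.905), the locus of CLDN15 and FIS1 (0.902) and ATHL1 (0.902). ACADVL averaged 80.4 FPKM in TNFSG, 72.6 FPKM in TNF, 75.0 FPKM in SG and 63.9 FPKM in control. PSMB9, likewise highest in TNFSG and lowest in control, averaged 10.8 ± 2.95 FPKM in TNFSG, 8.20 ± 2.53 FPKM in TNF, 8.23 ± 1.34 FPKM in SG and 5.47 ± 1.25 FPKM in control. These correlations are descriptions; the libraries share their groups.

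The siRNA and GapmeR were compared with the mock transfection without TNF (SG against control) and with it (TNFSG against TNF). None of the 10 genes passed limma's adjusted threshold in either, while all 10 log2 changes were positive in both, as were those of 20113 and 20143 of all 32866 loci. At an unadjusted p under 0.05, 5 of the 10 were higher in SG than in control and 4 were higher in TNFSG than in TNF, against 6.82% and 6.34% of all loci. At the adjusted threshold 0.0548% and 0.0578% of all loci were higher. Values were higher without overlap for PSMB9, PSMB10, PSME1 and PSME2 in SG against control (10.3% of all loci), and for TAP2, PSMB10, PSME1, PSME2 and ERAP1 in TNFSG against TNF (10% of all loci). The medians of the 10 genes were 0.31 and 0.26, and those of all loci 0.08 in each.

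Averaged over both TNF states, PSME1 was closest to the threshold, with a log2 change of 0.26 ± 0.05 (limma adjusted p 0.0513); without SG replicate 1 it passed (0.29, limma adjusted p 0.0266). TAP2 followed with 0.39 ± 0.10 (0.0953), PSME2 with 0.18 ± 0.05 (0.107) and PSMB10 with 0.20 ± 0.06 (limma adjusted p 0.125). At an unadjusted p under 0.05, 6 of the 10 were higher, against 10.7% of all loci, and at the adjusted threshold 0 were, against 0.593%. TAP1 and TAPBP, which had the largest log2 changes of the 10 genes with TNF on the log2(FPKM + 1) scale, gave 0.21 ± 0.15 and 0.27 ± 0.13 (limma adjusted p 0.586 and 0.38). The scaling between libraries matters here. Quantile normalization lowered the median of all loci by 0.12 in SG against control, by 0.11 in TNFSG against TNF and by 0.12 in their average, and the medians of the 10 genes were then 0.18, 0.15 and 0.18. All 10 remained positive under it.

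Among the pathway lists, POMP, the chaperone that completes the catalytic core and is known for its role in immunoproteasome assembly, moved the other way. It had 104, 98.1 and 101 FPKM in SG, against 135, 133 and 127 FPKM in control. It had 112, 106 and 112 FPKM in TNFSG, against 130, 138 and 129 FPKM in TNF. Every library with the targeted transfection lay below every mock library. The log2 change was -0.38 ± 0.06 for SG against control (limma adjusted p 0.0418), -0.26 ± 0.06 for TNFSG against TNF (limma adjusted p 0.175) and -0.32 ± 0.04 in their average (limma adjusted p 0.00619). At the adjusted threshold 0.116% of all loci were lower in SG than in control and 0.517% were lower in the average. The pairwise call was lost in 6 of 6 fits that left out a library (limma adjusted p up to 0.33 over all alternatives), and the averaged call was lost without the trend (0.0624).

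IRF2, a factor that binds the ISRE, was the only regulator past the threshold in the averaged comparison of the targeted transfection and is named after its value was seen. It averaged 7.43 ± 0.234 FPKM in SG and 4.96 ± 0.343 FPKM in control, and 15.6 ± 1.53 FPKM in TNFSG and 12.4 ± 0.919 FPKM in TNF (SD, n = 3 each). The averaged log2 change was 0.41 ± 0.07 (limma adjusted p 0.0293), and the call was lost in 9 of 12 fits that left out a library (limma adjusted p up to 0.0848), with median-ratio scaling, with quantile normalization and without the trend (limma adjusted p up to 0.0997).

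Whether the targeted transfection changed the TNF response was tested as an interaction, the change for TNFSG against SG minus that for TNF against control. By limma 0 of the 10 genes passed, where 0.00913% of all loci did, and 0 had an unadjusted p under 0.05, where 3.75% of all loci did. TAPBP had the estimate farthest from 0, at -0.34 with a 95% interval of -0.93 to 0.25. For TAP1 the estimate was 0.10, with an interval of -0.58 to 0.79, and for PSME1 it was -0.01, with an interval of -0.24 to 0.22. A difference in response smaller than these intervals could not be seen with 3 libraries per group.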

How the data were processed

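Per the labels' protocols, Trizol RNA was read on an Illumina HiSeq as single ends of 50 bases. Per the submitters' processing notes, TopHat2 2.0.14, Bowtie2 2.2.9 and Cufflinks (version not stated there) were run on hg38; which annotation was used is not given in the sources used here. In the deposited table the authors scaled FPKM to locus length and mapped fragments. Whole reads (tolerance 0.03) were recovered at 55.3% of 37506 loci, so no count test was run.

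The fit took the 32866 loci that reached 1 FPKM in 3 or more of the 12 libraries, as log2(FPKM + 1), with limma 3.58.1 in R 4.3.3 (trend, 1 mean per group, two-sided, Benjamini-Hochberg over all loci, threshold 0.05), and was tested on simulated data. Ratios, permutations and figures used Python 3.11.15, numpy 2.4.6, pandas 2.3.3 and matplotlib 3.10.9. Promoters came from RefSeq GRCh38.p14. All members were named, with up to 4 genes of lowest p per list in the averaged TNF comparison and 5 genes most like TAP1 and PSMB9 (mean of at least 2 FPKM); exceptions are stated. The members and lists were chosen with earlier results of these data known. HLA-F, NLRC5 and IRF9 were not analysed here. A further marker of K562 cells is not reported here. Nothing says that replicates came from separate cultures beyond the label, so p-values measure the spread between these libraries. Alternatives were other pseudocounts, filters, scalings, variance models, samples in the fit, a replicate block, summed loci and left-out libraries; those for genes outside the 10 were added after seeing the data.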

Additional observations from a re-analysis of the deposited data

How the results depend on the processing

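Over 1263 alternatives for the 10 genes, 1202 kept direction and side of the threshold, 17 lost a call, 7 gained one and 37 changed sign, 34 of them in the interaction. TAP1 and TAPBP kept their calls in both TNF comparisons under every alternative run, as did TAP1, TAP2, TAPBP, PSME1, ERAP1 and ERAP2 in their average. The cause of the changes below was not tested. The filter at 5 FPKM took fewer loci into the fit and left out PSMB8. Fits with groups or libraries left out held fewer libraries.

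Loci called numbered 478 for TNF against control (172 with only the groups compared) and 540 for TNFSG against SG (256, with 2 of the 10 genes called in place of 4). SG against control gave 56 loci (115 with the filter at 5 FPKM, 16 without the trend, 7 with only the groups compared). TNFSG against TNF gave 42 (97 with the filter at 5 FPKM, 75 with median-ratio scaling, 18 without the trend, 2 with only the groups compared), and the interaction 3 (12 with a pseudocount of 0.1). The averaged SG comparison gave 365 (701 with the filter at 5 FPKM, 158 without the trend). Its count among the 10 genes was 0, but 1 with a pseudocount of 0.1, 1 with no filter and 2 with the filter at 5 FPKM; PSME1 was the gene gained in each, with TAP2 under the last.

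With single libraries left out, the loci called ranged from 294 to 432 for TNF against control, 311 to 364 for TNFSG against SG, 10 to 29 for SG against control, 7 to 18 for TNFSG against TNF, 1 to 6 in the interaction, 978 to 1356 for TNF averaged and 132 to 340 for SG averaged. The counts among the 10 genes ranged from 3 to 3, 3 to 4, 0 to 0, 0 to 0, 0 to 0, 7 to 7 and 0 to 1 in that order. The log2 ratios ranged from 0.67 to 1.69 (PSMB8 over PSMB5), 0.31 to 0.57 (PSMB9 over PSMB6), 0.0551 to 0.12 (PSMB10 over PSMB7) and 0.35 to 0.44 (activator). PSMB8 ranged from -0.0802 to 0.63 in TNFSG against SG and from -0.11 to 0.58 in TNFSG against TNF, and PSMA1 from -2.30 to 0.197 with TNF averaged. The interaction ranged from -0.0626 to 0.28 for TAP1, -0.0477 to 0.17 for TAP2, -0.60 to 0.11 for PSMB8, -0.38 to 0.0338 for PSMB9, -0.0505 to 0.0461 for PSMB10, -0.0834 to 0.0491 for PSME1, -0.0638 to 0.0415 for PSME2 and -0.0803 to 0.14 for ERAP1. It also changed sign for TAP1 with a pseudocount of 0.1 (-0.0117), for PSME1 with median-ratio scaling (0.0074) and quantile normalization (0.0114), and with summed loci for ERAP1 (-0.0306) and ERAP2 (0.0924).

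Deviations of same-numbered libraries correlated by 0.0065 to 0.1378 (median 0.0225 over 18 pairs), against -0.0932 to 0.0425 (median -0.01655 over 36 pairs) for different numbers. For 8 of 12 libraries, the mean correlation with the other groups was highest for their own number. That is a hint of pairing from the data. The titles also give same-numbered libraries of all groups a shared letter (A, B or C), without saying what it stands for. Not every pair passed 0.1 and no batch is named, so the numbers were not taken as pairs. The main fits therefore leave out any such pairing. With the number as a replicate block, 831, 843 and 938 loci were called for TNF against control, TNFSG against SG and SG averaged, with 1 of the 10 genes (PSME1, limma adjusted p 0.0397) in the last, and HLA-E (0.87, limma adjusted p 0.00933) and HSPA5 (-0.18, limma adjusted p 0.0269) passed with TNF averaged. In that block the activator ratio kept its log2 difference of 0.40 at an adjusted p of 0.0625, where the smallest raw p is 0.0312.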
